A study of Mus musculus with 9 samples.

Results

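A set of 10 extracellular matrix genes was followed in cultured mouse synovial fibroblasts (SFs): Fn1, Tnc, Tnxb, Fbln1, Fbln2, Fbln5, Eln, Fbn1, Fbn2 and Sparc. These 10 genes were taken by symbol from a list of matrix glycoprotein and elastic fibre genes, and all 10 were present among the 49548 genes of the deposited tables. The data were 3′ mRNA sequencing (QuantSeq) libraries of SFs from ankle joints of mice aged 8 weeks, on a CBA C57BL/6J background, with 3 libraries in each of 3 groups. The groups were WT SFs without treatment, hTNFtg SFs without treatment, and hTNFtg SFs given infliximab (Remicade), an antibody against human TNF, at 1 µg/mL for 48 hours. hTNFtg mice carry a human TNF transgene and develop a destructive polyarthritis. All SFs were grown in culture and depleted of CD45+ cells at passage 1, so the values describe cultured cells and not the joint itself. For the untreated SFs the sample labels name no treatment, and the study's methods name vehicle. The libraries were described in the study as biological replicates, without saying how many mice each one came from.

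Elastic fibres consist of a core of elastin, the product of Eln, laid down on a scaffold of microfibrils built from fibrillins, the products of Fbn1 and Fbn2. Fibulins bind to both and to the cell surface, and lysyl oxidases crosslink the elastin core. Fibronectin (Fn1), tenascins (Tnc and Tnxb) and SPARC (Sparc) are glycoproteins that tie cells, collagens and growth factors together, and tenascin C is known for its presence in inflamed synovium.

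The number of reads per library was recovered from the step between low values and ranged from 613217 in hTNFtg replicate 1 to 9014450 in hTNFtg replicate 3. The other 8 libraries were 6.24 to 14.7 times as deep as hTNFtg replicate 1, in which 1 read was worth 6.23 normalized counts. Fibroblast markers were present in every group, with 10 of 10 at a mean of at least 10 normalized counts and a summed level of 36240 to 53209. Endothelial markers summed to 12 or less, with Tie1 at 0 in all 9 libraries. Macrophage markers summed to 188 to 594 in WT, 2869 to 6513 in hTNFtg and 1774 to 3499 in infliximab-treated SFs, and Ptprc, the gene of CD45, lay between 0 and 31. Hepatocyte markers reached a sum of 804 in infliximab replicate 3, against 61 or less in each of the other 8 libraries. Values are given below as normalized counts, and since each transcript gives reads from its 3′ end, they were not divided by gene length. In bulk RNA, fewer cells of a type and less RNA per cell cannot be told apart.

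Eln was located on chromosome 5 (134702593 to 134747323, minus strand, mm10) and Fbn1 on chromosome 2 (125300594 to 125507993, minus strand). Both transcripts carry matches to the seed of the miR-29 family, microRNAs known to target many matrix genes, and the sequences are shown because Eln and Fbn1 held more than 1 match each. The mature sequences, from RefSeq (GRCm38.p6), are given with the seed, bases 2 to 8, in capitals. All 3 share the seed AGCACCA.
mmu-miR-29a-3p: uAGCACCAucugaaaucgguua
mmu-miR-29b-3p: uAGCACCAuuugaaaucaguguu
mmu-miR-29c-3p: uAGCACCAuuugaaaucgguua

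The 3′ UTR of each gene was taken from the longest one annotated in GENCODE (GRCm38), and the reverse complement of the seed, TGGTGCT, was looked for on the transcript strand. Eln held 3 matches in 1188 bases, Fbn1 held 2 in 992 bases and Fbn2 held 1 in 1635 bases. The other 7 genes held none, among them Fbln5 with the longest 3′ UTR of 4177 bases. Of 20979 coding genes with a 3′ UTR, 13.05% held at least 1 match, and among genes with a 3′ UTR of similar length to that of Eln the share was 12%. Windows of 30 bases with the match in capitals, 5′ to 3′ on the transcript strand, are given for Eln and Fbn1. Windows 2 and 3 of Eln overlap. A match is a description of the letters, and no microRNA was measured in these libraries.
Eln site 1 (chr5:134703726-134703755, minus strand): cctcatcaacgtTGGTGCTactgcttggtg
Eln site 2 (chr5:134703479-134703508, minus strand): tccaagggaaatTGGTGCTacatgttggtg
Eln site 3 (chr5:134703466-134703495, minus strand): ggtgctacatgtTGGTGCTtcttctttgtg
Fbn1 site 1 (chr2:125301163-125301192, minus strand): ctgttgtctgttTGGTGCTagtaaattctc
Fbn1 site 2 (chr2:125300913-125300942, minus strand): gagggtttgtaaTGGTGCTtattaagacca

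The genes spanned a wide range of levels, in an order that was much the same in each group. Sparc was the highest in WT SFs at 18467 ± 2701 normalized counts (SD, n = 3), followed by Fn1 at 7981 ± 129, Fbn1 at 2410 ± 1164 and Fbln2 at 752 ± 203. Tnc followed at 401 ± 123, Fbn2 at 279 ± 52.7, Fbln5 at 269 ± 58.8, Fbln1 at 165 ± 34.1 and Eln at 114 ± 73.8. Neighbours in this order whose WT libraries overlapped were Tnc and Fbn2, Fbn2 and Fbln5, and Fbln1 and Eln. Tnxb was read at most 2 times in any library, below the limit of 3 reads used here, so it was not detectable at this depth and no fold is given for it. The 10 genes together made up 0.586% to 1.07% of the normalized counts of a library. Between 72% and 90% of that sum came from Sparc and Fn1 together, the lower end being hTNFtg replicate 3. Except for Fbn1 and Fbln2, which overlapped in hTNFtg and infliximab-treated SFs but not in WT, the first 4 places were held without overlap in every group.

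**Figure D1:**
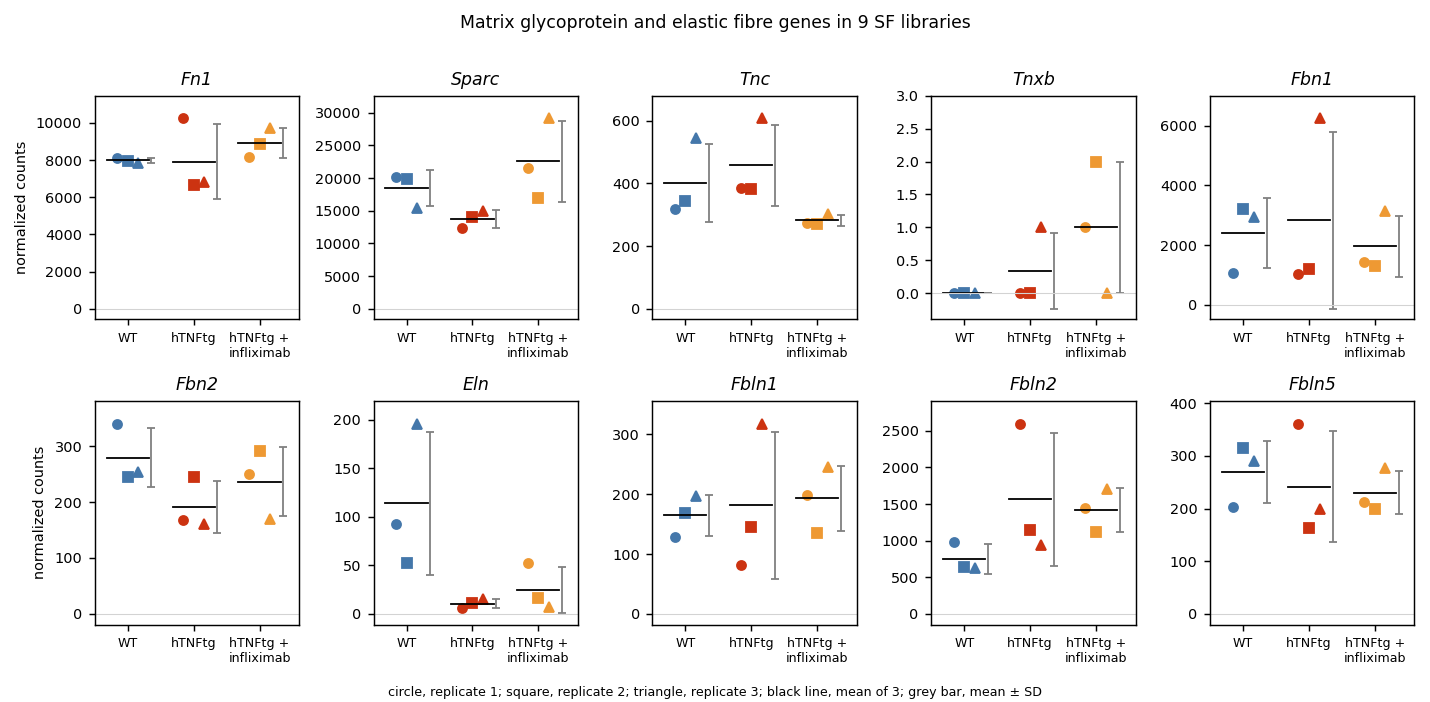
Normalized counts (y axis, linear) of the 10 genes in each library of the 3 groups (x axis), with the mean and SD of 3 libraries beside them. Eln lay between 53 and 196 in WT SFs and between 6 and 15 in untreated hTNFtg SFs, while Tnxb was at 2 or less throughout.

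The first comparison, hTNFtg against WT SFs, addresses how SFs of arthritic joints differ from those of healthy joints. Eln was the member that fell: it was 9.06-fold lower in hTNFtg SFs on the log2(value + 1) scale. It read 93, 53 and 196 normalized counts in the WT libraries and 6, 11 and 15 in the hTNFtg libraries. The groups did not overlap, and the highest hTNFtg library stood well below the lowest WT library. The log2 fold change was -3.18 with a standard error of 0.56 (95% interval -4.41 to -1.95, limma adjusted p = 0.034). The value of 6 in hTNFtg replicate 1 rested on a single read, with an exact Poisson 95% interval of 0.158 to 34.7 normalized counts for counting error only. Without that library the log2 fold change of Eln was -2.85 (limma adjusted p = 0.243). Leaving out any 1 of the 6 libraries kept Eln past the rule, with log2 fold changes of -3.62 to -2.69, but raised its adjusted p to between 0.0818 and 0.485 (limma).

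A gene was counted as changed when its unadjusted P in limma was below 0.05 and its log2 fold change was 1 or more in either direction. Of the 10 genes, 1 passed this rule, or 10%, against 6.39% of the 28522 genes tested (3.35% raised and 3.04% lowered), and 0.48% of all genes, or 137, had an adjusted p below 0.05. That number was 1 to 44 with any 1 library left out, the lowest without WT replicate 2. With edgeR on the recovered reads it was again Eln alone, against 8.47% of all genes. The median log2 fold change was -0.10 over the 10 genes, with Tnxb set to 0, and -0.00 over all genes tested. Eln and Sparc were the members whose groups did not overlap, both lower in hTNFtg, where 5.8% of all genes were lower without overlap and 5.63% higher.

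Marker sums of other cell types also differed between WT and hTNFtg SFs. The chondrocyte sum was lower in hTNFtg SFs, as Eln was, and the smooth muscle and pericyte sum was higher. Chondrocyte markers summed to 1270 to 2110 normalized counts in WT SFs, 234 to 370 in hTNFtg SFs and 339 to 737 in infliximab-treated SFs. Most of this sum was Sox9, at 1160 to 1939 in WT and 174 to 272 in hTNFtg SFs, whereas Acan, the gene of aggrecan, was at 16 or less in every library and Col2a1 lay between 37 and 133. A mean of 10 or more was reached by 6 of the 8 chondrocyte markers in WT and by 2 in hTNFtg SFs, and none was at 0 in all 9 libraries. Smooth muscle and pericyte markers, from cells known to make elastin, summed to 2286 to 4599 in WT and 4977 to 7108 in hTNFtg SFs, with Myh11 at 0 in 8 of the 9 libraries and at 1 in the remaining one. Most of that sum was Acta2 and Tagln. Acta2 was higher without overlap, at 1427, 2510 and 3203 in WT and 4684, 3653 and 4463 in hTNFtg SFs. Rgs5, a pericyte marker, was at 26, 31 and 25 in WT and 0, 3 and 4 in hTNFtg SFs. Notch3 was at 94, 53 and 31 in WT and 25, 36 and 32 in hTNFtg SFs, which overlap. Cnn1 also overlapped, at 143, 265 and 392 in WT and 392, 237 and 376 in hTNFtg SFs. Mcam, from the same list, was higher in hTNFtg SFs, as Acta2 was, at 114, 106 and 90 in WT and 193, 150 and 139 in hTNFtg SFs. The part of these markers and of the macrophage markers in the fall of Eln was not tested.

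The fibulins bridge elastin, microfibrils and basement membranes. Fbln2 read 986, 638 and 632 in WT SFs and 2597, 1152 and 939 in hTNFtg SFs. The lowest hTNFtg library lay just under the highest WT library, so the groups overlapped, and the highest value came from the shallow hTNFtg replicate 1. Its log2 fold change of 0.94 (SE 0.41, 95% interval 0.04 to 1.84) stayed under the size that the rule asks for (limma adjusted p = 0.608). Quantile normalization, with 1.04, and leaving out hTNFtg replicate 3, with 1.23, carried it past the rule, and leaving out hTNFtg replicate 1 gave 0.50.

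Fbln5, which is needed for elastic fibre assembly, read 203, 315 and 290 in WT and 361, 164 and 200 in hTNFtg SFs, with a log2 fold change of -0.21 (95% interval -0.99 to 0.56). Fbln1 read 129, 168 and 197 in WT and 81, 145 and 318 in hTNFtg SFs, with a log2 fold change of -0.06 (95% interval -1.04 to 0.92). For Fbln5 the hTNFtg libraries lay on either side of the WT range, and for Fbln1 one lay below it, one above it and one inside it.

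Among the fibrillins, Fbn1 varied more within the hTNFtg group than between groups. It read 1075, 3211 and 2945 in WT SFs and 1028, 1205 and 6261 in hTNFtg SFs. The 3 hTNFtg libraries spanned 6.09-fold, with hTNFtg replicate 3 above all others, and the log2 fold change was -0.13 (SE 0.66, 95% interval -1.59 to 1.33). The sign of this value changed with the library left out, from -0.96 without hTNFtg replicate 3 to 0.34 without hTNFtg replicate 1.

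**Figure D2:**
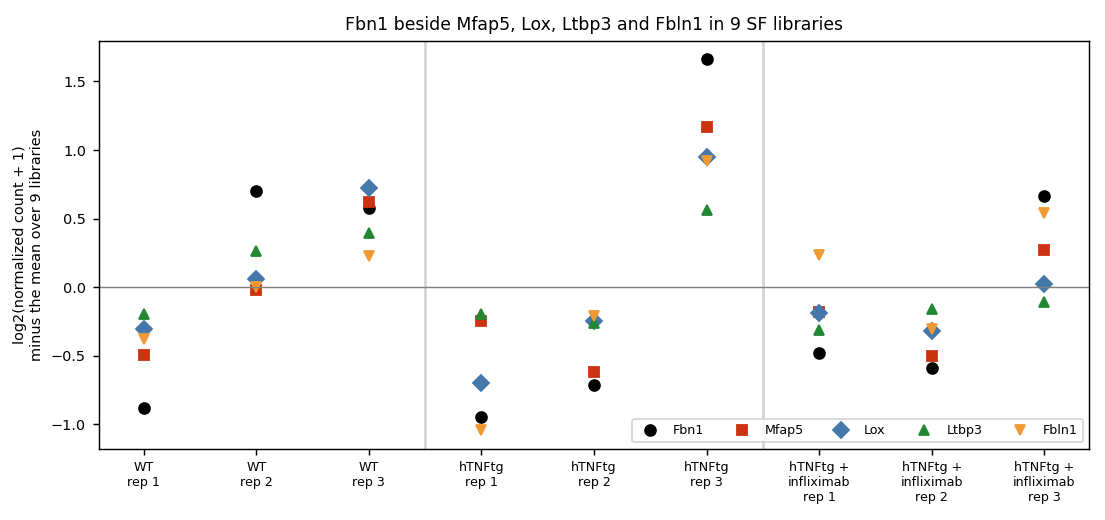
Log2(normalized count + 1) of Fbn1, Mfap5, Lox, Ltbp3 and Fbln1 in each of the 9 libraries (x axis), each gene set to 0 at its mean over the libraries (y axis). All 5 genes, the last 4 chosen after their values were seen, were highest in hTNFtg replicate 3. Among the 3 untreated hTNFtg libraries, that one was the highest for 39.1% of 13647 genes.

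Fbn2, the fibrillin known mainly from development, read 340, 245 and 253 in WT and 168, 245 and 160 in hTNFtg SFs. Its log2 fold change of -0.56 (95% interval -1.22 to 0.11) did not pass the test (limma adjusted p = 0.726). Per 100 counts of Fbn1 there were 7.63 to 31.6 counts of Fbn2 in WT and 2.56 to 20.3 in hTNFtg libraries, ranges that overlap. The ratio of Eln to Fbn1, which no scaling of a library can change, was 1.65 to 8.65 per 100 in WT SFs and 0.24 to 0.913 per 100 in hTNFtg SFs without overlap. In infliximab-treated SFs it was 0.223 to 3.66 per 100, which overlapped both of these ranges. The ratio in hTNFtg replicate 1, 0.584 per 100, rested on a single read of Eln and carries the wide counting interval of that read.

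The adhesive glycoproteins did not pass the rule. Fn1 read 8124, 7948 and 7872 in WT SFs and 10245, 6674 and 6842 in hTNFtg SFs. The 3 WT libraries differed by 1.03-fold while the hTNFtg libraries lay above and below them, and the log2 fold change was -0.04 (95% interval -1.09 to 1.01). Sparc, whose product binds collagen and calcium, read 20233, 19810 and 15357 in WT and 12301, 14062 and 15022 in hTNFtg SFs. Every hTNFtg library was below every WT library, by a narrow gap between 15022 and 15357, and the log2 fold change was -0.41 (SE 0.59, limma adjusted p = 0.792). Under quantile normalization the log2 fold change of Sparc was -0.076. Tnc read 318, 343 and 543 in WT and 386, 381 and 607 in hTNFtg SFs, with a log2 fold change of 0.20 (95% interval -0.52 to 0.91), so that the groups overlapped.

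**Figure D3:**
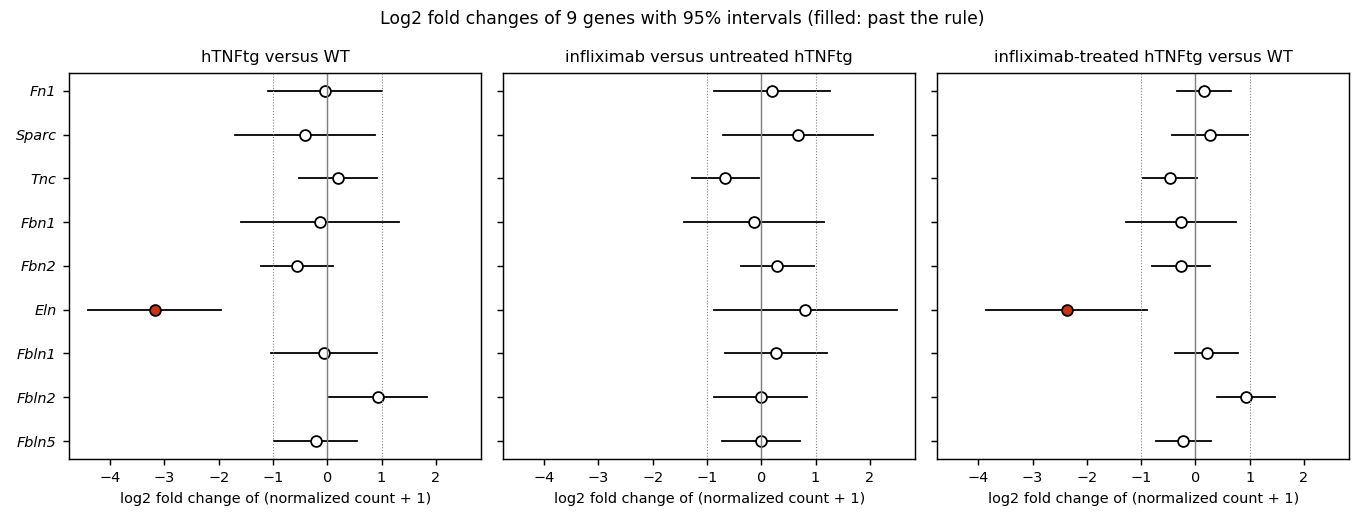
Log2 fold changes of (normalized count + 1) on the x axis for 9 genes (Tnxb left out) in the 3 comparisons, with 95% intervals from limma as lines, dotted lines at -1 and 1, and filled points for genes past the rule. Eln stands past the rule at -3.18 in hTNFtg and at -2.37 in infliximab-treated SFs, both against WT.

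The second comparison, infliximab-treated against untreated hTNFtg SFs, addresses how these genes responded to blocking TNF in culture. None of the 10 genes passed the rule, where 2.43% of 28540 genes did (1.49% raised and 0.936% lowered). edgeR on the recovered reads also passed none of them, against 4.31% of all genes. At an adjusted p under 0.05 limma called 0 genes of all tested, 1026 genes had an unadjusted P under 0.05, and edgeR on the recovered reads called 165 at an adjusted p under 0.05. The median log2 fold change of the 10 genes was 0.10 with Tnxb set to 0, and over all genes it was 0.00.

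Tnc was lower after infliximab in every library. The treated SFs read 274, 271 and 302 normalized counts, under the lowest untreated hTNFtg library at 381, and differed from each other by 1.11-fold. The log2 fold change was -0.66 (SE 0.29, 95% interval -1.28 to -0.05, limma adjusted p = 0.803), which is short of the size the rule asks for. Across the genes tested, 3.44% were lower without overlap and 3.99% higher without overlap. Sparc was the member that was higher in every treated library, at 21519, 16974 and 29121 against 12301, 14062 and 15022. Its log2 fold change of 0.68 (SE 0.64, limma adjusted p = 0.803) had a 95% interval of -0.70 to 2.05. The highest Sparc value came from infliximab replicate 3, the library with the raised hepatocyte markers, and without it the log2 fold change was 0.48.

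Eln read 52, 16 and 7 after infliximab, against 6, 11 and 15 in untreated hTNFtg SFs. Infliximab replicate 1 stood clear above the untreated range, replicate 2 at 16 lay just above it and replicate 3 inside it, and the log2 fold change of 0.81 (SE 0.78, 95% interval -0.88 to 2.49) did not pass the test. Without infliximab replicate 1 it was 0.08. Fn1 read 8143, 8888 and 9727 after treatment (log2 fold change 0.20), Fbn2 read 250, 291 and 169 (0.30) and Fbln1 read 198, 136 and 245 (0.27), and each overlapped the untreated libraries. Fbln2 read 1445, 1112 and 1706, and its log2 fold change of -0.01 had an interval of -0.87 to 0.85. Fbln5 at 213, 200 and 276 and Fbn1 at 1421, 1315 and 3143 also overlapped the untreated range, with log2 fold changes of -0.00 and -0.13.

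The third comparison sets infliximab-treated hTNFtg SFs against WT SFs. It uses the same treated libraries as the second comparison and the same WT libraries as the first. Eln was past the rule, the only one of the 10 genes, where 6.81% of 28243 genes passed (3.86% raised and 2.95% lowered) and 0.74%, or 209, had an adjusted p below 0.05, a number that was 0 or 1 with any 1 library left out. By edgeR it was also Eln alone, against 7.27% of all genes. Its log2 fold change was -2.37 (SE 0.66, limma adjusted p = 0.169, edgeR adjusted p = 1.48e-09), and infliximab replicate 1 at 52 lay next to WT replicate 2 at 53. Without WT replicate 3 the value was -1.88 (limma adjusted p = 0.534), and without infliximab replicate 2 it was -2.28 (limma adjusted p = 0.456), and in either case the unadjusted P was just above the threshold, so that Eln no longer passed.

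Fbln2 was 1.9-fold higher in infliximab-treated than in WT SFs, with its lowest treated library at 1112 above the highest WT library at 986. Its log2 fold change of 0.93 (SE 0.24, limma adjusted p = 0.133, edgeR adjusted p = 0.00306) did not reach the size in the rule, but it was past it without WT replicate 1 (1.14) and without infliximab replicate 2 (1.09). Fn1 was higher without overlap (log2 fold change 0.16, limma adjusted p = 0.726) and Tnc lower without overlap (-0.47, limma adjusted p = 0.463). With Eln and Fbln2 these made 4 of 10 genes whose groups did not overlap, where the background was 7.14% higher and 7.07% lower. The gap was within counting error for Fn1, at 8143 in the lowest treated and 8124 in the highest WT library, and for Eln, at 52 and 53. The same held for Tnc, at 302 in the highest treated and 318 in the lowest WT library.

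Tnc had the smallest unadjusted P of the members when infliximab-treated were compared with untreated hTNFtg SFs, and the 250 bases before its RefSeq start are shown for that reason. Promoters of 7 of the 10 genes were matched in RefSeq (GRCm38.p6), in 10 windows. Both strands were searched for the TATA box letters TATAAA, the GC box letters GGGCGG, the AP-1 letters TGANTCA, and the NF-kB motif by its name, and matches are in capitals. TATAAA was found in 2 windows, both of Tnc, and in 12.4% of all 32851 windows. In the Tnc window shown, TATAAA begins 126 bases before the start, and its use as a TATA box was not tested. GGGCGG was found in 6 of the 10 windows, of Fbln1, Fbln2, Fbln5, Fbn1 and Tnc, and in 32.7% of all windows. TGANTCA occurred in the window of Tnxb (6.75% of all) and the NF-kB motif in one of Fbln1 (7.25% of all).
Tnc (chr4:64047016-64047265, minus strand): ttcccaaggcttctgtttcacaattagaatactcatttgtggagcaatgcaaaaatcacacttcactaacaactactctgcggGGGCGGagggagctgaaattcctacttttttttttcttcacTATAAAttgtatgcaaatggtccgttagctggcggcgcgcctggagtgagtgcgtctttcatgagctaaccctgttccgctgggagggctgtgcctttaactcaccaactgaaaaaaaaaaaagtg

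Related genes were taken from 3 lists, the elastic fibre assembly and microfibril genes (24 in the tables), other matricellular and adhesive glycoproteins (34) and receptors for fibronectin, tenascin and fibulin (11). In hTNFtg against WT SFs, 2 of the 24 elastic fibre genes rose and 1 fell, 4 of the 33 glycoproteins tested rose and 8 fell, and 1 of the 11 receptors was counted higher. That receptor gene, Itga8, was at 0 in WT and at 6, 1 and 1 normalized counts in hTNFtg SFs, under the limit of 3 reads in every one of these libraries, so it was not detectable at this depth. The share past the rule was 12.5%, 36.4% and 9.09%, against the 6.39% of all genes given above.

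The elastic fibre genes that changed were a fibulin and a pair of lysyl oxidases. Fbln7 read 128, 188 and 312 in WT and 12, 14 and 20 in hTNFtg SFs (log2 fold change -3.62, SE 0.42, limma adjusted p = 0.00598). Loxl3 read 224, 320 and 244 in WT and 953, 708 and 1058 in hTNFtg SFs (log2 fold change 1.78, SE 0.30, limma adjusted p = 0.0261). Loxl2 read 359, 389 and 308 in WT and 1215, 833 and 1152 in hTNFtg SFs (log2 fold change 1.58, SE 0.29, limma adjusted p = 0.044). For all 3 genes the groups stood apart, with Fbln7 lower and both oxidases higher in hTNFtg SFs. Leaving out 1 library gave limma adjusted p-values of 0.0243 to 0.223 for Fbln7, 0.0818 to 0.411 for Loxl3 and 0.109 to 0.447 for Loxl2. Lox itself, the main lysyl oxidase of elastin and collagen, read 11431, 14709 and 23316 in WT and 8682, 11918 and 27263 in hTNFtg SFs, which overlap.

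Of the glycoproteins, Comp, Matn4, Nov, Smoc1, Matn2, Sparcl1, Tnn and Thbs4 fell in hTNFtg SFs. Comp, which encodes cartilage oligomeric matrix protein and is also made by tendon and synovial cells, read 5353, 4373 and 7288 in WT and 299, 848 and 550 in hTNFtg SFs (log2 fold change -3.42, limma adjusted p = 0.00753), though these reads may be shared with its neighbour Crtc1, described with the genes most like Eln. The limma adjusted p of Comp was 0.0465 to 0.257 with 1 library left out. Matn4, a matrilin, read 205, 194 and 160 in WT and 0, 7 and 9 in hTNFtg SFs, with the value of 0 in the shallow replicate 1. Both are known from cartilage, and the chondrocyte marker sums given beside Eln hold for them too. Sparcl1, a relative of Sparc, was low, at 3 to 33 in WT and 0 to 2 in hTNFtg SFs. Thbs4 overlapped between the groups and was past the rule in 1 of 6 fits that left out a library, the one without hTNFtg replicate 1 (log2 fold change -1.67). Spp1 (osteopontin), Postn (periostin) and Igfbp7 rose, with log2 fold changes of 1.19, 1.38 and 1.19 (limma adjusted p = 0.3, 0.3 and 0.372). Macrophage markers moved with them, summing to 188 to 594 in WT and 2869 to 6513 in hTNFtg SFs. The part of these markers in the rise of Spp1 was not tested. The fourth gene that rose, Spock3, was read at 8 normalized counts or less. Postn no longer passed without WT replicate 2, WT replicate 3 or hTNFtg replicate 1 (log2 fold changes of 1.05 to 1.23), nor did Igfbp7 without WT replicate 1, WT replicate 2 or hTNFtg replicate 1 (0.70 to 1.20), and Spp1 was at 0.93 without hTNFtg replicate 1. Sparcl1 no longer passed without WT replicate 2, WT replicate 3 or hTNFtg replicate 1 (-2.68 to -1.99), and Tnn was at -0.71 without hTNFtg replicate 3 and at -1.91 to -1.72, with an unadjusted P above the threshold, without any 1 WT library.

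After infliximab, 2 of 23 elastic fibre genes tested, 1 of 34 glycoproteins and 0 of 11 receptors passed the rule, all higher. The shares were 8.7%, 2.94% and 0%, against 2.43% of all genes, so that of the glycoproteins was near the background. Ltbp4, a latent TGF-beta binding protein that takes part in elastic fibre assembly, read 75, 80 and 70 in untreated and 158, 174 and 235 in treated hTNFtg SFs (log2 fold change 1.30, SE 0.30, limma adjusted p = 0.803). Mfap2, a microfibril protein, read 69, 146 and 112 in untreated and 168, 234 and 409 in treated SFs (log2 fold change 1.27, SE 0.38). Neither gene's groups overlapped. Without hTNFtg replicate 1 Mfap2 was at 0.98, and without infliximab replicate 3 at 0.92, both short of the rule. Comp read 1933, 1355 and 573 after treatment (log2 fold change 1.14), where infliximab replicate 3 lay inside the untreated range. Comp no longer passed when any of hTNFtg replicates 1 and 3 and infliximab replicates 1 and 2 was left out (0.74 to 1.18). Nor did it pass with the mean filter (1.14), array quality weights (0.67) or the replicate block (1.14, limma unadjusted P = 0.126).

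Against WT, infliximab-treated SFs had 3 elastic fibre genes higher and 1 lower of 24, 3 glycoproteins higher and 8 lower of 34, and 2 receptors higher and 1 lower of 11. These are 16.7%, 32.4% and 27.3% of the 3 lists, against 6.81% of all genes. Hmcn2, Spock3 and Vwa1, counted higher here, were read little, at 12 normalized counts or less after treatment. With the mean filter of 10, related genes counted higher numbered 3, against 8 without it. Fbln7, at 20, 5 and 24 after treatment, fell by 3.75 on the log2 scale (limma adjusted p = 0.0207, and 0.107 to 0.343 with 1 library left out). Loxl3 (log2 fold change 1.21) and Loxl2 (1.11) were past the rule here too. Ctgf (1.83), a matricellular protein, the integrin subunit gene Itgb8 (1.35) and, lower, Itga9 (-1.16), which encodes a receptor chain for tenascin C, were past it here. In untreated hTNFtg against WT SFs these 3 genes did not pass, with log2 fold changes of 0.93, 1.63 and -0.89 in the same directions. Treated and untreated hTNFtg SFs, compared directly, differed by 0.89, -0.28 and -0.26 (limma adjusted p = 0.803, 0.942 and 0.89), so none of the 3 was shown to differ between them. Of the 2 receptors counted higher, the one besides Itgb8 was Itga8, at 4 normalized counts or less after treatment. Itgb8 was read little, at 3 to 5 normalized counts in WT and 8 to 16 in treated SFs, and did not pass without WT replicate 3 (1.20) or infliximab replicate 3 (1.13). Loxl2 was at 0.80 without infliximab replicate 3.

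**Figure D4:**
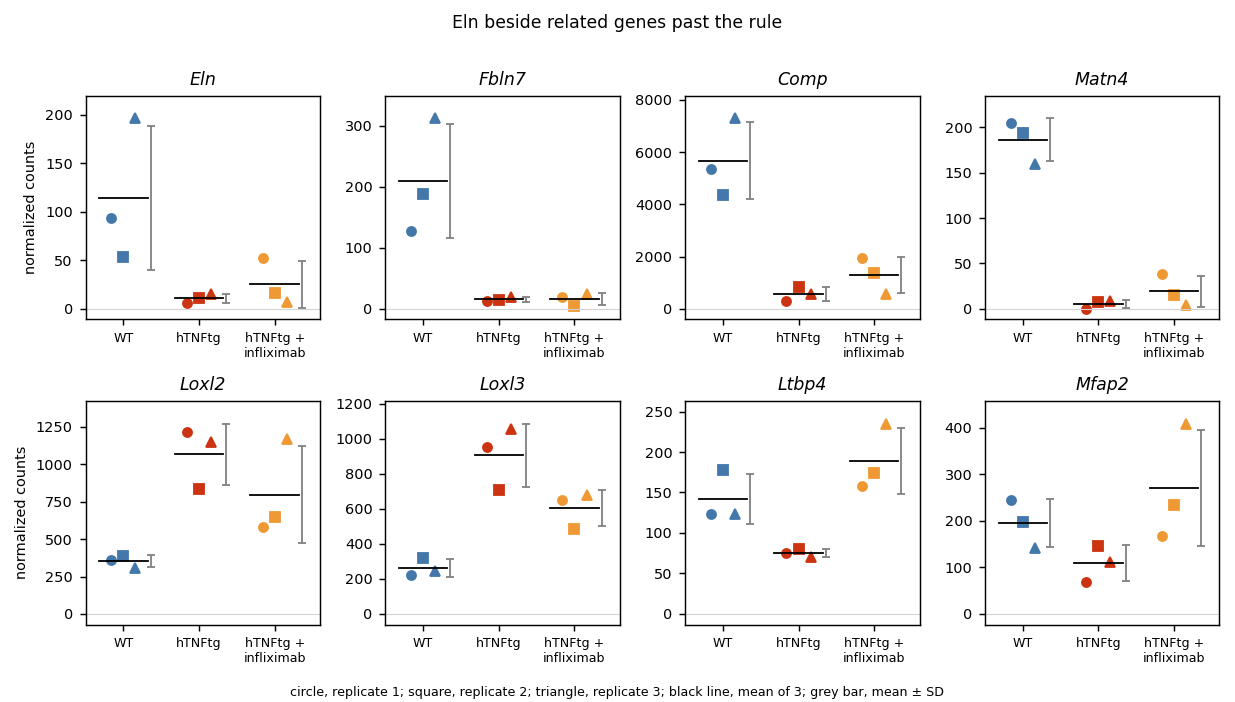
Normalized counts (y axis, linear) of Eln and 7 related genes in each library (x axis, 3 groups), with the mean and SD of 3 libraries. Eln, Fbln7, Comp and Matn4 were lower and Loxl2 and Loxl3 higher in hTNFtg than in WT SFs, and Ltbp4 and Mfap2 were higher after infliximab.

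The genes whose pattern over the 9 libraries was most like that of Eln, among 8631 genes with a mean of at least 50, were Gprasp1 (Pearson r = 0.953 on log2 values), Comp (0.952) and Crtc1 (0.951). All 9 points share the groups, so a gene that differs between WT and hTNFtg SFs in the same direction scores high, and no test was made. Crtc1 lies 288 bases from the end of Comp on the opposite strand, and its values differed from those of Comp by at most 2.01% in any library, so the 2 genes may share reads, these data do not tell to which of them the reads belong, and the values and calls of both are uncertain. Gprasp1 read 94, 112 and 152 in WT and 44, 63 and 64 in hTNFtg SFs. Opposite-strand neighbours that overlap the members were near 0, with at most 19 normalized counts for 8030451A03Rik at Tnc, 12 for Gm9913 at Fbn1 and 0 for Gm43278 at Eln.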

How the data were processed

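Total RNA of SFs went into QuantSeq 3′ libraries that were read on an Ion Proton System. As the submitters' notes and the methods of the study state, the authors mapped reads to mm10 with TopHat2 and Bowtie2, counted them per gene with GenomicRanges and normalized them with DESeq through metaseqR, versions not given in the sources used here. The deposited values are counts scaled by 1 factor per library and rounded, read here as a score. In hTNFtg replicate 1 the deposited signal rises in steps of whole reads. The hTNFtg values were the same in both tables (0 differences), so the WT and infliximab libraries share a scale. Columns of the authors' p-values, fold changes and means, and 24 further per-sample columns, were not used.

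Values were joined by gene ID. limma 3.58.1 in R 4.3.3 was fitted on log2(value + 1) for each pair of groups, over genes above 0 in at least 1 of 6 libraries, with Benjamini-Hochberg adjustment over all genes tested. Reads recovered from the steps were rounded and tested with edgeR 4.0.16, which put 2416, 1229 and 2053 genes past the rule in the 3 comparisons. They gave back at least 99.99% of the deposited values in each library. This share is a check only where 1 read was worth more than 1 normalized count, in hTNFtg replicate 1 (6.23) and infliximab replicate 1 (1.10). In the other libraries every whole value is given back whatever the step, so the share does not check their read numbers. The fits and the recovery of steps were tested on simulated data. The alternatives were another pseudocount, a mean filter of 10, quantile and median ratio scaling, array quality weights, a replicate block, all 9 libraries in one fit, edgeR, and leaving out each library. Counting intervals and the floor of 3 reads cover counting error only. All 10 members are named, with related genes past the rule at a mean of at least 10 in a group (at most 20, those of largest change kept; 19 met it, and the text takes them by role), and the 3 genes most like each member past the rule. Exceptions to this rule, named for another reason, are said to be so or are markers, overlapping genes or Lox. Itga8, Spock3, Hmcn2 and Vwa1 are named to account for a count. The members and lists were chosen with earlier results of these data known.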

Additional observations from a re-analysis of the deposited data

How the results depend on the processing

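Eln kept its direction and stayed past the rule in hTNFtg against WT SFs under every alternative tried, with adjusted p-values of 1.2e-08 (edgeR) to 0.485 (without WT replicate 3). Over 378 values of the 9 members above the floor, 344 kept direction and side of the rule, 2 lost the call, 4 gained it and 28 changed sign. The causes were not tested. Of 431 values of the 19 named related genes, 48 lost the call and 0 changed sign. The shallow hTNFtg replicate 1 limits low genes most, since 3 reads there equal 18.7 normalized counts, and with 3 libraries a group the intervals of most members include changes of 1.5-fold.

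The number of members past the rule in hTNFtg against WT was 2 under quantile normalization (Eln and Fbln2) and 1 to 2 with a library left out. It was 0 throughout for infliximab and 0 to 2 for infliximab-treated against WT SFs, where Tnxb, at the floor, was counted without infliximab replicate 3. Related genes past the rule numbered 16, 3 and 18, with 5 by edgeR for infliximab and 11 to 17, 2 to 5 and 17 to 21 with a library left out. All genes past the rule numbered 1823, 693 and 1923. In hTNFtg against WT they were 3540 with array quality weights, 1183 with the mean filter and 1382 to 2407 with a library left out. For infliximab they were 1050 with 9 libraries, 2144 with weights, 1229 by edgeR, 314 with the mean filter, 351 with a pseudocount of 5, 418 without infliximab replicate 2 and up to 1411 without hTNFtg replicate 1. For infliximab-treated against WT SFs they were 1056 with the mean filter, 1058 with a pseudocount of 5 and 1681 to 2516 with a library left out.

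Signs changed only for small log2 fold changes that had not passed. In hTNFtg against WT, Fn1 was 0.12 under quantile normalization and -0.24 to 0.069 with a library left out, Fbln1 0.16 by edgeR and -0.58 to 0.40, Fbn1 0.19 by edgeR and -0.96 to 0.34, Fbln5 -0.55 to 0.022 and Tnc -0.024 to 0.44. For infliximab, with weights, Fbln2 was 0.18, Fbln5 0.34 and Fbn1 0.31, and Fbln5 was 0.0050 with median ratios and 0.027 by edgeR. With a library left out Fbln1 spanned -0.19 to 0.79, Fbln2 -0.31 to 0.43, Fbln5 -0.24 to 0.33 and Fbn1 -0.61 to 0.70, and in treated against WT SFs Fbn1 spanned -0.77 to 0.020.

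Libraries of the same number correlated at -0.14 to 0.353, 0.0698 to 0.265 and -0.147 to 0.102 in the 3 comparisons, with at least 1 pair in each below 0.1. The main fits did not treat the libraries as paired, and these values do not settle whether they were. For infliximab all 3 were above 0, and replicates 2 and 3 of the treated SFs, not replicate 1, correlated best with their own number. Read from the untreated side, all 3 hTNFtg libraries correlated best with the treated library of their own number. Whether treated and untreated SFs came from the same culture is not given in the sources used here. A replicate block left 1, 0 and 1 members, 15, 2 and 19 related genes and 1659, 605 and 1698 of all genes past the rule, and 0 genes at an adjusted p under 0.05 in each comparison (limma; 2266, 1076 and 2876 at an unadjusted p under 0.05), against 137, 0 and 209 without the block and 917, 165 and 1324 by edgeR. The block ended the calls of Tnn, Igfbp7 and Thbs4 in hTNFtg against WT SFs (limma unadjusted P = 0.104, 0.0539 and 0.0846). Their log2 fold changes there were -1.79, 1.19 and -1.10. It also ended that of Comp after infliximab.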

Other observations

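Fbn1 and a few other elastic fibre genes were highest in the same library, hTNFtg replicate 3. Fbn2, at 160, and Ltbp1, at 154, were at their lowest there. These genes were chosen after their values were seen, and no test was made. Among the untreated hTNFtg libraries that one was the highest for 9 of 20 elastic fibre genes with enough reads, or 45%, and for 39.1% of all 13647 genes, so the list was near the background by this measure. Fbn1 read 6261 there, against 1028 and 1205 in the other untreated hTNFtg libraries. Mfap5, a microfibril glycoprotein, read 3437 against 1289 and 998, Lox read 27263 against 8682 and 11918, and Loxl1 read 2080 against 891 and 854. Fbln1 read 318 against 81 and 145. In that library 2 of the 9 members above the floor and 4 of 20 elastic fibre genes with enough reads stood at over 2 times both other untreated hTNFtg libraries. The same held for 7.72% of 13647 genes, and for 1305 of them in the shallow hTNFtg replicate 1. hTNFtg replicate 3 was also the deepest library, and the part of depth in this was not tested. Efemp1, another fibulin family gene, read 185 in hTNFtg replicate 3, 44 and 75 in the other untreated hTNFtg libraries and 42 to 91 in WT SFs.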
